A study of Homo sapiens with 6 samples.

Results

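The miR-19 family and the family of miR-25 and miR-92 are small groups of microRNAs (miRNAs), several of them cut from the same transcripts. Their guide-strand probes were examined here in liver cancer cells given extra HDAC6. Probes were chosen by name. Of the 7 stems sought (miR-19a, miR-19b, miR-25, miR-32, miR-92a, miR-92b and miR-363), 6 had a guide-strand probe among the 581 probes analysed. Those 6 probes are the members, 2 from the miR-19 family and 4 from the miR-25/miR-92 family. A guide-strand probe for miR-363 was not analysed here. Star-strand (passenger) and precursor probes of these miRNAs served as context.

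The cells were Hep3B, an established line from a human hepatocellular carcinoma. The HDAC6 group (3 arrays) was transfected with the expression plasmid pcDNA3.1 carrying HDAC6, a mostly cytoplasmic deacetylase whose best known substrate is tubulin. The Mock group (3 arrays) received the empty plasmid. Both groups were transfected with a lipid reagent, and the time of harvest was not given in the sources used here. Per the labels, RNA of 3 extractions was combined in equal parts for each condition, so the arrays of a group may be repeat hybridizations of 1 pool. The p-values therefore reflect array-to-array spread, which may be technical. HDAC6 itself is not a miRNA and was not measured on these arrays. The question, from the title of the series, was which miRNAs respond to HDAC6 in hepatocellular carcinoma.

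MiRNAs bind messenger RNAs mainly through their seed, the bases 2 to 8 from the 5′ end, and lower the output of those messages. MiR-19 is the member of the miR-17/miR-92a cluster best known for promoting lymphoma in mice. The miR-25/miR-92 family includes miR-92a of the same cluster and miR-25, whose known targets include the pro-apoptotic gene BIM. These miRNAs are often abundant in proliferating and tumour cells. Each hairpin gives a guide strand, which is usually loaded into the silencing complex, and a star strand, which is usually discarded.

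The mature sequences below are shown because the seeds define both families and because the 3′ ends show how alike the members are to a probe. They were taken from RefSeq (GRCh38.p14), where all 6 members were matched by name. The array's own probe sequences were not used here, and the guide arm was taken as the arm named without an asterisk in older nomenclature. Capitals mark the seed.
miR-19a (3p): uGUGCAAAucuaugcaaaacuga
miR-19b (3p): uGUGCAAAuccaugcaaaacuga
miR-25 (3p): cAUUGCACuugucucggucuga
miR-92a (3p): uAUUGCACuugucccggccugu
miR-92b (3p): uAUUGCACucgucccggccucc
miR-32 (5p): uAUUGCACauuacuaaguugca

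The seed of miR-19 was held by 2 mature miRNAs of RefSeq, both on the array. The seed of the miR-25/miR-92 family was held by 6, of which miR-363 and miR-367 had no guide probe analysed here. With positions counted from 1 at the 5′ end, miR-19a differed from miR-19b by U11C alone. MiR-92a differed from miR-92b by U10C, G21C and U22C, and from miR-25 at 4 of 22 positions. MiR-32 shared 11 of 22 positions with miR-92a and 13 of 22 with miR-25. Probes of miR-19a and miR-19b, and those of miR-92a, miR-92b and miR-25, may therefore bind each other's miRNAs, and their values are uncertain to that extent.

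The members come from 5 chromosomes (all positions GRCh38.p14). MIR19A, MIR19B1 and MIR92A1 lie on the plus strand of chromosome 13 at chr13:91350891-91350972, chr13:91351192-91351278 and chr13:91351314-91351391, inside the long noncoding gene MIR17HG, the host of the miR-17/miR-92a cluster. Second copies of miR-19b and miR-92a, MIR19B2 and MIR92A2, lie on the minus strand at chrX:134169671-134169766 and chrX:134169538-134169612, inside MIR106AHG. Because the mature miRNAs of both copies are identical, the probes cannot tell the chromosome 13 and X loci apart. MIR25 lies at chr7:100093560-100093643 (minus strand) inside MCM7, which encodes a subunit of the replicative helicase. MIR32 lies at chr9:109046229-109046298 (minus strand) inside TMEM245, and MIR92B at chr1:155195177-155195272 (plus strand) inside the span of the noncoding gene THBS3-AS1. The annotation used gives gene spans without exons, so exon or intron was not assigned.

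All 6 members were lower in HDAC6 cells than in Mock cells, by 1.70-fold to 2.72-fold. Every HDAC6 array lay below every Mock array for each of them. In limma's test all 6 passed an adjusted p of 0.05. Of all 581 probes 24.4% were called lower, and of the 386 probes classed by name as guide strands 29.5%. None of the 6 was called higher, against 21.3% of all probes and 20.7% of guide strands. Non-overlapping, lower HDAC6 arrays were found for 29.8% of all probes and 35.8% of guide strands. The median log2 fold change (HDAC6 minus Mock) was -1.25 over the members, against -0.09 over all probes and -0.21 over guide strands. A fall of this size was not particular to the members. For example, miR-146a (-1.53), miR-30e (-1.58) and miR-192 (-1.90) fell by more than any member, while miR-122 (0.40) did not fall. The members and the families were chosen with earlier results of these data known, so these counts describe the members and are no independent support.

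**Figure D1:**
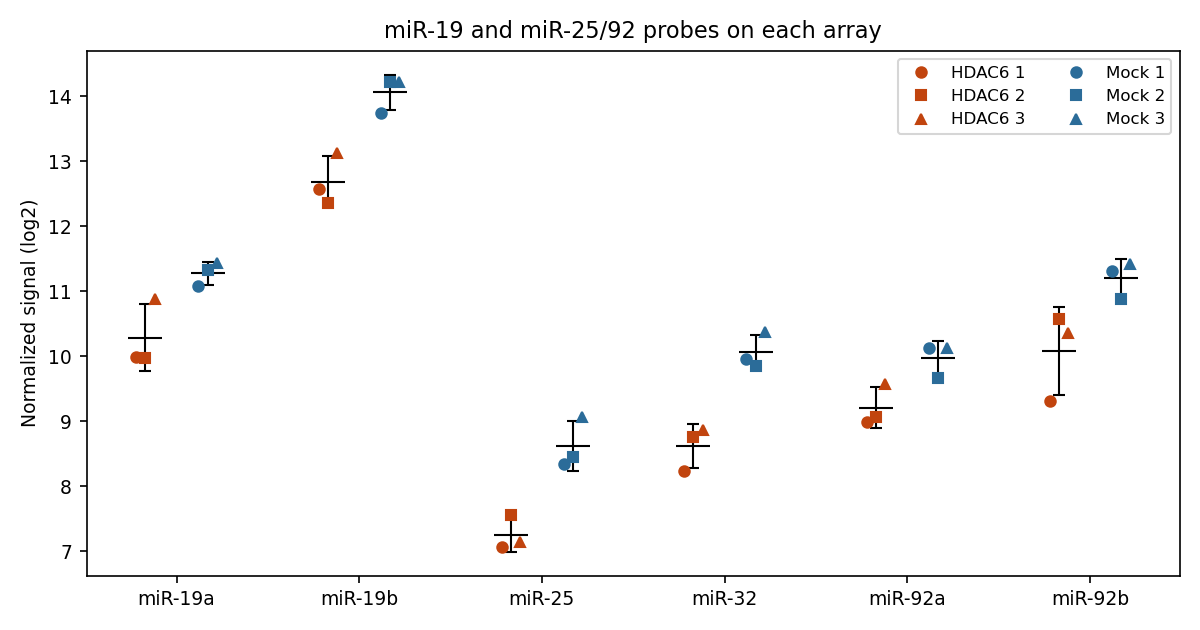
Normalized log2 signal (vertical axis) of the 6 guide-strand probes on each of the 3 HDAC6 arrays (orange, left) and 3 Mock arrays (blue, right), with the mean and SD in black. For each probe every orange point lies below every blue point. MiR-92a has the closest groups, with 9.57 on HDAC6 3 and 9.66 on Mock 2.

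Within the miR-19 family, the miR-19b probe had log2 signals of 12.58, 12.36 and 13.13 on the HDAC6 arrays 1 to 3, against 13.75, 14.22 and 14.22 on the Mock arrays 1 to 3. The groups were well separated. MiR-19b held rank 2 by signal on each Mock array and ranks 7, 8 and 4 on the HDAC6 arrays, so it also stood lower in rank. Its level averaged 12.69 ± 0.40 in HDAC6 and 14.06 ± 0.27 in Mock (SD, n = 3 each), a log2 fold change of -1.38 (SE 0.26) or 2.60-fold lower (limma, adjusted p = 0.00513).

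The miR-19a probe read 9.99, 9.98 and 10.88 on the HDAC6 arrays, against 11.08, 11.33 and 11.43 on the Mock arrays. HDAC6 3 lay apart from the other two HDAC6 arrays and close to Mock 1. MiR-19a averaged 10.28 ± 0.52 in HDAC6 and 11.28 ± 0.18 in Mock, 1.99-fold lower with a log2 fold change of -0.99 (SE 0.28, limma, adjusted p = 0.0234). The call was lost without HDAC6 1 (adjusted p = 0.0834), HDAC6 2 (0.0641), Mock 2 (0.0566) or Mock 3 (0.0584), and with arrays centred on 7 small RNA control probes (0.0697).

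Within the miR-25/miR-92 family, miR-32 had the largest fold change of the members. MiR-32 is encoded apart from the large clusters and is known to repress BIM as miR-25 does. Its probe read 8.23, 8.76 and 8.86 on the HDAC6 arrays, against 9.96, 9.85 and 10.37 on the Mock arrays, with no HDAC6 array near a Mock array. MiR-32 averaged 8.62 ± 0.34 in HDAC6 and 10.06 ± 0.27 in Mock, 2.72-fold lower with a log2 fold change of -1.44 (SE 0.25, limma, adjusted p = 0.0039).

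MiR-25, the family's member in the MCM7 cluster, read 7.06, 7.55 and 7.15 on the HDAC6 arrays, against 8.35, 8.46 and 9.06 on the Mock arrays. Its HDAC6 signals lay below or near the array medians, which ranged from 7.51 to 7.58, while its Mock signals lay above them. MiR-25 averaged 7.25 ± 0.26 in HDAC6 and 8.62 ± 0.39 in Mock, 2.58-fold lower with a log2 fold change of -1.37 (SE 0.26, limma, adjusted p = 0.00503).

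MiR-92b, a close relative of miR-92a encoded alone on chromosome 1, read 9.31, 10.58 and 10.35 on the HDAC6 arrays, against 11.31, 10.88 and 11.42 on the Mock arrays. HDAC6 1 was far below the other two, which gave miR-92b the widest HDAC6 spread of the members. It averaged 10.08 ± 0.68 in HDAC6 and 11.21 ± 0.29 in Mock, 2.18-fold lower with a log2 fold change of -1.12 (SE 0.35, limma, adjusted p = 0.0316). Without HDAC6 1 the log2 fold change was -0.74 (adjusted p = 0.0795), a move of over 1.5 times. The call was also lost without HDAC6 3 (0.0532), Mock 1 (0.0894) or Mock 3 (0.0793), and with control-probe centring (0.0504).

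MiR-92a, which is made from both the chromosome 13 cluster and its copy on chromosome X, had the smallest fold change. Its probe read 8.99, 9.07 and 9.57 on the HDAC6 arrays, against 10.13, 9.66 and 10.13 on the Mock arrays, and HDAC6 3 nearly met Mock 2. MiR-92a averaged 9.21 ± 0.32 in HDAC6 and 9.97 ± 0.27 in Mock, 1.70-fold lower with a log2 fold change of -0.76 (SE 0.24, limma, adjusted p = 0.0327). The call was lost without HDAC6 1 (adjusted p = 0.121), HDAC6 2 (0.0831), Mock 1 (0.101) or Mock 3 (0.0795), and with control-probe centring (0.128).

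**Figure D2:**
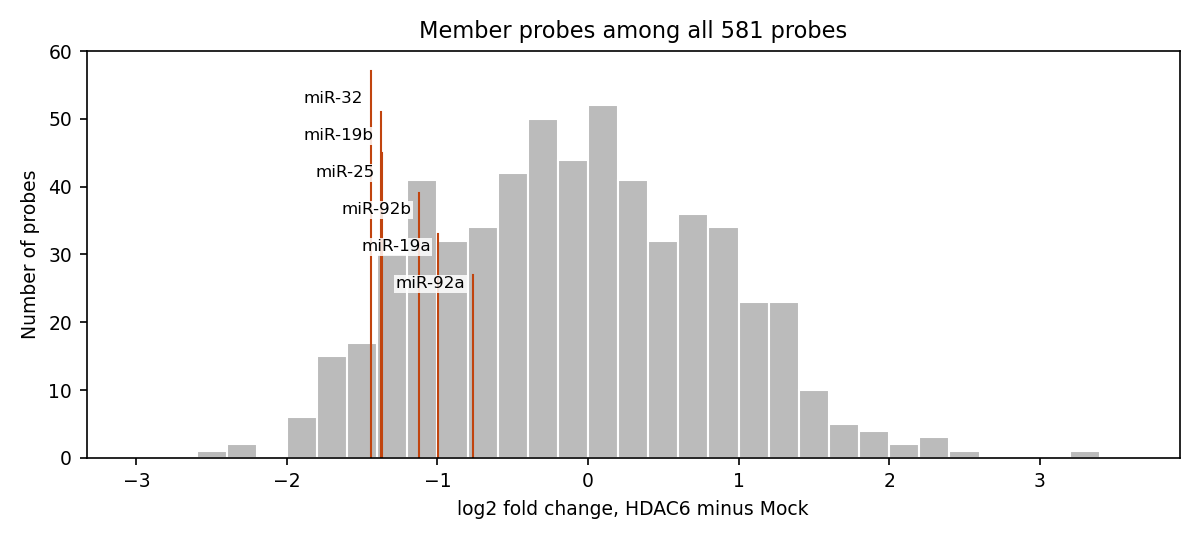
Histogram of the log2 fold change (HDAC6 minus Mock, horizontal axis) of all 581 probes, counted on the vertical axis, with the 6 members as vertical lines. The members lie between -1.44 (miR-32) and -0.76 (miR-92a), left of the median of all probes at -0.09.

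MiR-19b, miR-25 and miR-32 thus passed in each alternative that was run, with adjusted p of at most 0.0228, and with a stricter threshold of 0.01. The count of members called lower was 3 without HDAC6 1, without Mock 3 and with control-probe centring, against 93, 128 and 85 of all probes. All members kept a negative log2 fold change in each alternative.

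Whether the members differed in the size of their fall could not be settled with 3 arrays a group, where an exact permutation test cannot give a p below 0.1. Differences between 2 members were formed within each array, for 15 pairs, and ranged from -0.68 (miR-32 minus miR-92a) to 0.45 (miR-19a minus miR-32). MiR-19a minus miR-19b was -2.59, -2.38 and -2.25 on the HDAC6 arrays, against -2.67, -2.90 and -2.79 on the Mock arrays. The groups did not overlap, and the difference of 0.38 gave p = 0.1 in an exact two-sided permutation test. MiR-19b minus miR-92a (-0.61) and miR-32 minus miR-92a (-0.68) had the same p of 0.1. After adjustment over the 15 pairs these 3 stood at 0.5.

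None of the 7 star strands of these miRNAs passed as lower, and 2 of them rose. MiR-92b* and miR-363* were the ones called higher. The count called lower was 0 in limma, and also 0 at an unadjusted p under 0.05, where 29.6% of all probes were lower. Among all 83 star strands, 14.5% were called higher and 26.5% lower. The star strands that rose are shown because miR-92b* comes from the same hairpin as a member that fell. Capitals mark bases 2 to 8.
miR-92b* (5p): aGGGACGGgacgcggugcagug
miR-363* (5p): cGGGUGGAucacgaugcaauuu
The hairpin of MIR92B (RefSeq, GRCh38.p14, chr1:155195177-155195272, plus strand) carries the star strand first and the guide strand second, both in capitals.
MIR92B: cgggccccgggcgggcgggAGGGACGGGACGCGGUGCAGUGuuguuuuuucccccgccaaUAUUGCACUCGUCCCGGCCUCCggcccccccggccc

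MiR-92b* read 9.25, 9.56 and 9.66 on the HDAC6 arrays, against 8.19, 8.01 and 8.56 on the Mock arrays. Every HDAC6 array was above every Mock array, the reverse of the guide strand miR-92b. MiR-92b* was 2.36-fold higher, with a log2 fold change of 1.24 (SE 0.22, limma, adjusted p = 0.0047). Within each array, miR-92b minus miR-92b* was 0.06, 1.02 and 0.69 in HDAC6, against 3.12, 2.87 and 2.87 in Mock. The change in this difference was -2.36 (SE 0.35, limma over 73 guide and star pairs, adjusted p = 0.00191), and it passed in each alternative run (adjusted p of at most 0.0253). Of the 73 pairs, 20.5% had a guide strand called lower relative to its star.

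MiR-363*, the star strand of the last hairpin of the chromosome X cluster, read 9.81, 10.18 and 9.51 on the HDAC6 arrays, against 8.41, 8.37 and 8.35 on the Mock arrays. The Mock arrays were nearly equal and every HDAC6 array was above them. It was 2.75-fold higher, with a log2 fold change of 1.46 (SE 0.22, limma, adjusted p = 0.00308). With no guide probe analysed, it could not be compared within its hairpin.

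**Figure D3:**
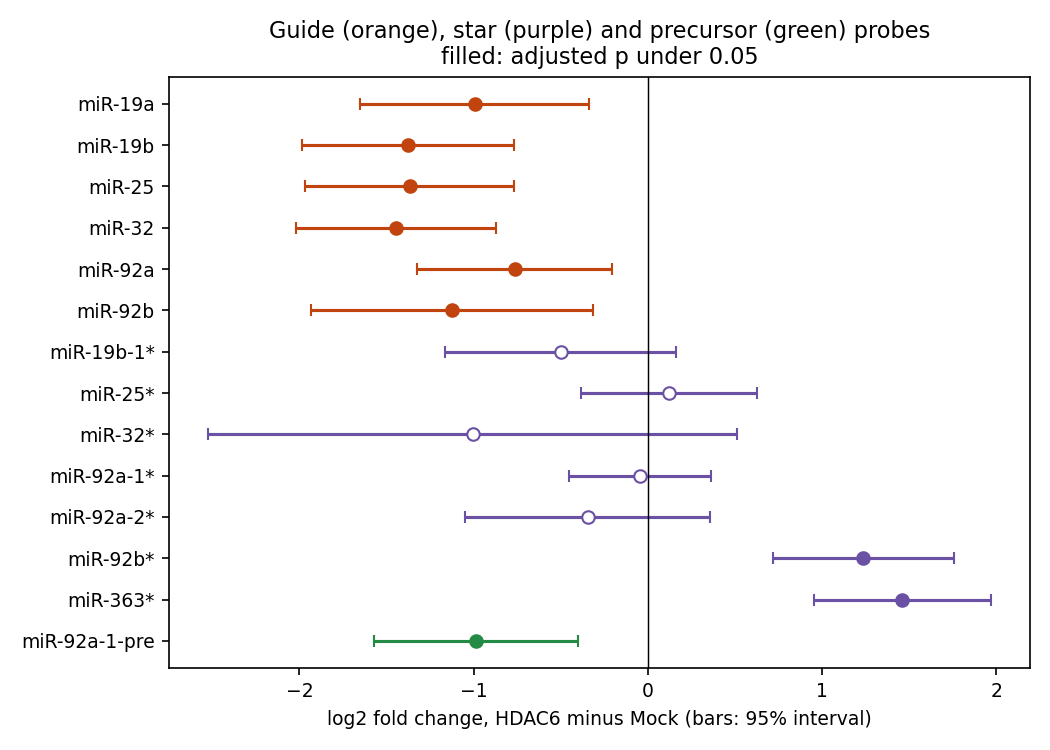
Log2 fold change (HDAC6 minus Mock, horizontal axis) with its 95% interval for the 6 guide, 7 star and 1 precursor probes, one per row. Filled points passed an adjusted p of 0.05. Guides lie left of 0, miR-92b* and miR-363* lie right of it at 1.24 and 1.46.

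MiR-25*, from the same hairpin as miR-25, did not pass. It read 8.30, 8.45 and 8.09 on the HDAC6 arrays, against 8.26, 7.85 and 8.36 on the Mock arrays, and the groups overlapped. Its log2 fold change was 0.12 (95% interval -0.38 to 0.62, limma, adjusted p = 0.678). MiR-25 minus miR-25* was -1.24, -0.90 and -0.95 in HDAC6, against 0.08, 0.60 and 0.70 in Mock. This difference changed by -1.49 (SE 0.33, limma over pairs, adjusted p = 0.0182), a call lost without HDAC6 1 (0.0636), Mock 2 (0.0551) or Mock 3 (0.057). The hairpin of MIR25 (chr7:100093560-100093643, minus strand) again has the star strand first and the guide second, in capitals.
MIR25: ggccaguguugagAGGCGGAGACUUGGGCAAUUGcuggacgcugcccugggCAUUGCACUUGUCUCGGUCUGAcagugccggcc

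The remaining star probes were dim. On the HDAC6 arrays miR-19b-1*, miR-92a-1* and miR-92a-2* read between 5.55 and 6.65, against 5.91 to 7.08 on the Mock arrays, and each overlapped between groups. Their log2 fold changes were -0.50, -0.05 and -0.35 (limma, adjusted p = 0.183, 0.852 and 0.378). MiR-19b-1* passed as lower without HDAC6 2 (-0.76, adjusted p = 0.0491) and with array weights (-0.79, adjusted p = 0.0424). MiR-32* read 3.52, 6.55 and 5.07 on the HDAC6 arrays, against 6.06, 5.90 and 6.20 on the Mock arrays, and the 3.52 of HDAC6 1 was the lowest value in the table. Its log2 fold change of -1.01 (SE 0.65) did not pass (adjusted p = 0.237) but was -1.76 without HDAC6 2 (adjusted p = 0.0192), -1.79 with array weights (adjusted p = 0.0464) and -0.24 without HDAC6 1 (adjusted p = 0.689). Signal over background of these probes is unknown, because the files hold no detection flag. Differences of guide minus star for these 4 probes did not pass (limma over pairs, adjusted p from 0.147 to 0.629). With an offset added before the logarithm, those with miR-19b-1*, miR-32* and miR-92a-1* passed (adjusted p of at most 0.0494), and that with miR-92a-2* did not.

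**Figure D4:**
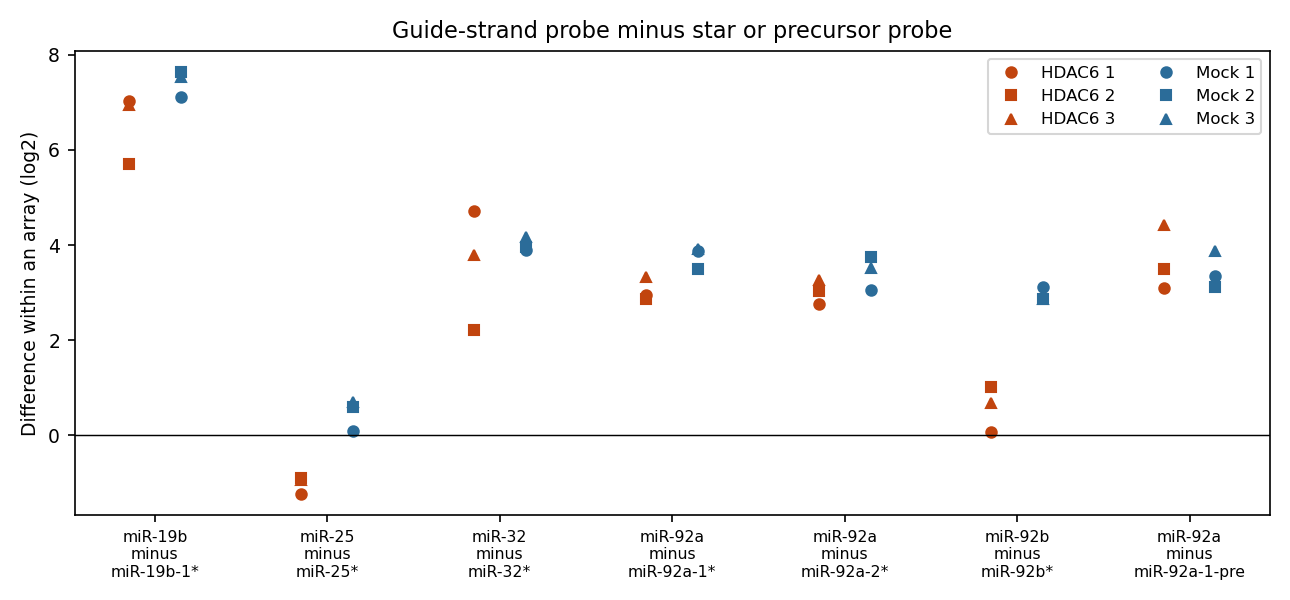
Within-array difference (log2, vertical axis) between a guide-strand probe and its star or precursor probe on each HDAC6 array (orange, left) and Mock array (blue, right). The groups do not overlap for miR-25 minus miR-25*, miR-92b minus miR-92b*, miR-92a minus miR-92a-1* and, narrowly, miR-19b minus miR-19b-1*, of which the first 2 passed the test, while miR-32 minus miR-32* spreads from 2.21 to 4.71 in HDAC6.

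A single precursor probe was available, for the first miR-92a hairpin. MiR-92a-1-pre read 5.88, 5.56 and 5.16 on the HDAC6 arrays, against 6.78, 6.54 and 6.25 on the Mock arrays, among the dimmer probes of each array. It was 1.98-fold lower with a log2 fold change of -0.99 (SE 0.25, limma, adjusted p = 0.0157), and 5.77% of the 104 precursor probes were called lower. The call was lost without HDAC6 3 (0.0532) or Mock 1 (0.0554), with repeated quantile normalization (-0.68, 0.0568) and with control-probe centring (0.0656), and the log2 fold change was -0.40 with an offset added before the logarithm. MiR-92a minus this precursor changed by 0.22 (95% interval -0.67 to 1.12, limma over 75 guide and precursor pairs, adjusted p = 0.664), and 30.7% of such pairs had a guide called lower relative to its precursor. Precursor probes can bind mature miRNA and the reverse, which was not checked.

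Of the 9 probes for other miRNAs of the 3 paralogous clusters, 7 also fell. These mates belong to the miR-17 seed family, which represses cell cycle inhibitors such as p21, and to the miR-18 family. The share of all probes called lower was 24.4%, and that of guide strands 29.5%. None of the 9 was called higher, against 21.3% of all probes and 20.7% of guide strands, and their median log2 fold change was -1.20. MiR-91, an older name that RefSeq lists for MIR17, had -1.63 (SE 0.37, limma, adjusted p = 0.0105), and miR-17 had -1.14 (adjusted p = 0.0154). Both probes are in the count of 7 of 9, so this hairpin is counted more than once. MiR-20a (-1.34), miR-20b (-1.33), miR-18a (-1.19), miR-18b (-1.20) and miR-93 (-1.20) also passed. MiR-106a had -1.09 (adjusted p = 0.0575) and miR-106b -0.75 (adjusted p = 0.0527), and both passed with arrays centred on the median (0.0429 and 0.0485), with an intensity trend and robust priors (0.0386 and 0.0407) and without HDAC6 3 (0.0117 and 0.0408). Leaving out HDAC6 1 left 5 of the 9, and 93 of all probes, called lower. At the stricter threshold of 0.01, 2 of the 9 passed, as did 62 of all probes in the lower direction.

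Along the MCM7 cluster, in the order of transcription, the log2 fold changes were -0.75 for miR-106b, -1.20 for miR-93 and -1.37 for miR-25, with 95% intervals that overlap. Along the chromosome 13 cluster miR-19a, miR-19b and miR-92a, whose hairpins start 286, 587 and 709 bases after that of MIR17, had -0.99, -1.38 and -0.76. No order along either cluster was tested.

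**Figure D5:**
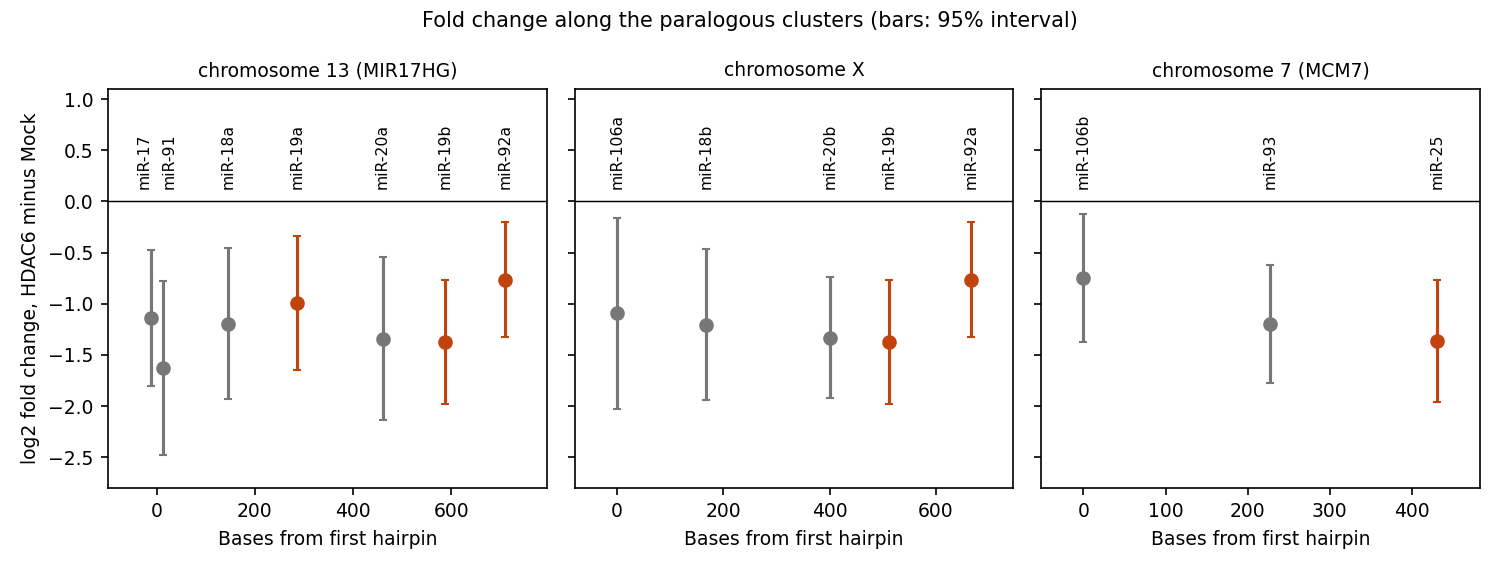
Log2 fold change (HDAC6 minus Mock, vertical axis) with 95% interval for guide-strand probes of the clusters on chromosomes 13, X and 7, against the distance in bases from the first hairpin (horizontal axis, in the direction of transcription). Members are orange and mates grey. MiR-19b and miR-92a appear at both of their loci with the same value, and miR-17 and miR-91, from 1 hairpin, are drawn side by side. Every point lies below 0.

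The HDAC6 arrays were not alike in these clusters. HDAC6 3 was the highest of the HDAC6 arrays for 10 of 10 guide-strand probes from the chromosome 13 and X clusters (miR-19a, miR-19b and miR-92a among them), against 32.9% of all probes. That share covers guide, star, precursor and control probes together, and the share over guide strands alone was not computed. For the 3 probes of the MCM7 cluster HDAC6 3 was the highest in 1, and for miR-32 and miR-92b in 1 of 2. Most star probes of the chromosome 13 and X clusters did not share this order. MiR-17*, miR-18a*, miR-18b*, miR-20a*, miR-19b-1* and miR-363* were highest on HDAC6 2, and only miR-92a-1* and miR-92a-2* on HDAC6 3. Outside the clusters, the guide-strand probes of miR-192 and miR-194 were also highest on HDAC6 3, and that of miR-148a was not. The grouping by cluster was made after the values were seen, and the cause of the order was not tested. Some of the 10 probes are for near-identical miRNAs (miR-19a and miR-19b, for example), and miR-17 and miR-91 are from the same hairpin.

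The guide-strand probes, as classed by name alone, whose pattern over the 6 arrays was most like a member's were found by Pearson correlation. This served as a description. With 6 arrays in 2 groups such a correlation is mostly set by the group difference. MiR-19a was closest to its cluster mate miR-17 and to miR-18b (both r = 0.995), then to miR-21 (0.972). MiR-19b was closest to miR-146a (0.999), miR-30e (0.991) and miR-146b-5p (0.988). MiR-25 was closest to miR-7 (0.997), miR-484 (0.994) and miR-22 (0.99), and miR-32 to miR-96 (0.998), miR-130b (0.99) and miR-22 (0.989). MiR-92a was closest to miR-339-5p (0.981), miR-378 (0.977) and miR-103 (0.975). MiR-92b was closest to miR-551b (0.963), miR-130b (0.956) and miR-213 (0.955).

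For the series as a whole, the correlation across probes was 0.937 to 0.959 between HDAC6 arrays, 0.922 to 0.952 between Mock arrays and 0.779 to 0.848 between an HDAC6 and a Mock array. Of the hepatocyte list, 5 of 5 miRNAs were measured: miR-192 read 10.24 to 11.97 in HDAC6 and 13.01 to 13.27 in Mock, while miR-122, the main hepatocyte miRNA, read 7.66 to 8.13 in HDAC6 and 7.30 to 7.65 in Mock, near the array medians. MiR-192, miR-194 and miR-148a also fell (limma, adjusted p = 0.00953, 0.0137 and 0.00272). MiR-122 had a log2 fold change of 0.40 (adjusted p = 0.166) and miR-885-5p of -0.51 (adjusted p = 0.15), and neither passed. Whether the hepatocyte markers bear on the members' fall was not tested. Of 7 haematopoietic and 5 fibroblast markers, 2 and 4 were measured. Among them miR-214 rose by 1.24 (adjusted p = 0.00384) and the other 5 did not pass.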

How the data were processed

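MiRNA levels were measured on GenoExplorer chips with 10 ug of biotin-labelled total RNA. Per the labels, spots were read with GenePix Pro 5.0, poor spots were removed by eye, 3 spots per probe were averaged, and values were quantile normalized and class-filtered in GenePlex 3.0. Neither background correction nor the filter's rule is stated in those labels. The deposited table is in log2 units, judged from its range (3.52 to 15.78). Because the values were quantile normalized, fold changes are relative to the other probes of an array. Of 582 rows 1 was blank, which left 581 probes (386 guide, 83 star, 104 precursor, 8 control). Every miRNA probe named without an asterisk or -pre was classed as guide. Both arms of some hairpins (miR-28-5p and miR-28-3p, for example) are therefore in that class, which may hold passenger strands.

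HDAC6 and Mock arrays, grouped by sample title, were compared with limma 3.58.1, run under R 4.3.3 (two-sided moderated test, Benjamini-Hochberg over all 581 probes, threshold 0.05). The script was tested on simulated data. Within-array differences were tested by limma over 73 guide and star pairs and 75 guide and precursor pairs, and between members by exact permutation. Sequences and loci came from RefSeq (GRCh38.p14), matched by name.

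The members, lists and tests were chosen with earlier results of these data known. Named miRNAs were the members, their star and precursor probes, the cluster mates, the 3 most correlated guide strands per member, and cell type markers. Alternatives were median, control-probe or repeated quantile scaling, brighter probes (above the 25th percentile of mean signal), mature probes alone, an offset (the 25th percentile of the antilogs), trend and robust priors, array weights, a replicate block, each array left out, and an adjusted p of 0.01. The number of arrays limits the precision.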

Additional observations from a re-analysis of the deposited data

How the results depend on the processing

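All 6 members kept their direction in the alternatives run. With the replicate number as a block, 6 members were lower (144 of all probes), miR-92b had an adjusted p of 0.043 and miR-92b minus miR-92b* changed by -2.36 (0.0253). The block changed no call of a member, star, precursor or guide-minus-star result, and among the mates miR-106a and miR-106b passed. Across probes, deviations from the group means had r = 0.16, -0.09 and 0.19 for same-numbered arrays. For arrays of different number r ranged from -0.29 to 0.19. With 3 arrays a group these values cannot settle whether the numbers mark pairs, and the main test did not take them as pairs. With arrays centred on control probes 3 members passed, miR-19a, miR-92a and miR-92b had -0.91, -0.68 and -1.04, and 85 of all probes were lower and 81 higher. At an adjusted p of 0.01, 3 members, 2 mates and, of all probes, 62 lower and 68 higher passed. The count of star and precursor probes called lower, 1 as reported, was 0 with repeated quantile normalization, control-probe centring, brighter probes, mature probes alone or the 0.01 threshold (the precursor is itself left out with brighter or mature probes), and 3 with array weights. Leaving out 1 array gave 3 to 5 members lower, 0 to 3 star and precursor probes lower and 93 to 139 of all probes lower. It gave -1.29 to -0.84 for miR-19a, -0.94 to -0.65 for miR-92a, -1.37 to -0.74 for miR-92b, -0.032 to 0.22 for miR-25*, -1.76 to -0.24 for miR-32* (-1.79 with array weights) and -0.088 to 0.010 for miR-92a-1*, which was 0.27 with repeated quantile normalization and 0.036 with control-probe centring. Guide minus star or precursor ranged from -1.68 to -1.37 for miR-25, -1.01 to 0.24 for miR-32 and -0.15 to 0.51 for miR-92a and its precursor. With the offset, guide minus star passed for miR-19b (-1.15), miR-32 (-1.02) and miR-92a with miR-92a-1* (-0.66), and miR-92a minus its precursor was -0.28. With array weights miR-32 minus miR-32* was 0.033. Differences between members with small values turned sign: leaving out 1 array gave -0.11 to 0.53 for miR-19a minus miR-92b, -0.28 to 0.31 for miR-19b minus miR-25, -0.071 to 0.31 for miR-19b minus miR-32, -0.58 to 0.16 for miR-19b minus miR-92b and -0.019 to 0.25 for miR-25 minus miR-32, and the offset gave -0.11 for miR-19b minus miR-32 and 0.066 for miR-25 minus miR-92b. The causes were not tested. The median of all probes, -0.09 as reported, was 0.08 with repeated quantile normalization, so the members' values there are relative to a raised median. No detection flag was used, so dim star and precursor probes may lie near background.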

Other observations

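Star strands of the cluster mates were examined in the same way. Of 6 such probes, miR-17*, miR-18a* and miR-20a* fell by 0.89, 0.94 and 1.14 on the log2 scale (SE 0.28, 0.27 and 0.29; limma, adjusted p = 0.0323, 0.025 and 0.0153), against 26.5% of all star strands called lower. All 3 come from the chromosome 13 cluster, and their guide strands fell too. The other star probes of that cluster, miR-19b-1* (-0.50) and miR-92a-1* (-0.05), did not pass (limma, adjusted p = 0.183 and 0.852). MiR-20a* read 6.36, 6.47 and 5.92 on the HDAC6 arrays, against 7.01, 7.24 and 7.92 on the Mock arrays. MiR-18b*, miR-93* and miR-106b* had -0.72, 0.06 and 0.00 and did not pass (adjusted p = 0.306, 0.831 and 0.992). In the MCM7 cluster, the star probes of miR-25, miR-93 and miR-106b thus gave 0 calls (limma, and 0 at an unadjusted p under 0.05), with log2 fold changes of 0.12, 0.06 and 0.00. Of all star strands 26.5% were called lower and 14.5% higher, and 29.6% of all probes were lower at that unadjusted p. With 3 probes, a count of 0 is not far from these shares. The difference between the chromosome 13 and MCM7 star strands was not tested.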
